A study of Mus musculus with 4 samples.

Results

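The genes described here are 37 genes of the endoplasmic reticulum (ER) that fold secreted proteins, form their disulfide bonds, remove those that misfold, or sense and answer an excess of unfolded protein. They were taken from a list of names, and each was measured by the brightest of its probe sets on the array. All 37 were found among the 18193 named genes, and all 37 had a mean level above the median gene, which lay at 5.04 on the log2 scale. By role they were 12 chaperones and cochaperones, 9 thiol oxidoreductases, 10 genes of ER-associated degradation, 4 sensors and transcription factors, and 2 genes of protein translocation.

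The cells were K7M2, a mouse osteosarcoma line that metastasises readily, grown with fetal bovine serum. They over-expressed either GFP (1 array) or ezrinT567A-GFP (3 arrays, replicates 1 to 3), a GFP fusion of an ezrin mutant in which alanine stands in for the threonine that kinases modify near the C-terminus. Ezrin ties membrane proteins to cortical actin. The design text calls the comparison group wild-type, while its array is labelled GFP. Which promoter drove the constructs, and whether the replicates came from separate cultures or clones, is unknown here. The p-values therefore speak of the spread among these arrays alone, which may be technical.

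Proteins that enter the ER are kept soluble by the Hsp70 chaperone BiP (Hspa5) and its J-domain cochaperones, by the Hsp90 chaperone GRP94 (Hsp90b1) and, when they carry sugars, by the lectins calnexin and calreticulin. Protein disulfide isomerases form and shuffle their disulfide bonds, and proteins that fail are sent back to the cytosol for destruction by the SEL1L and HRD1 ubiquitin ligase complex. When unfolded protein builds up, the sensors IRE1α (Ern1), PERK (Eif2ak3) and ATF6 start the unfolded protein response, in which ATF6 and the spliced form of XBP1 raise chaperone genes and PERK slows translation and raises ATF4. Cells that secrete much matrix, as bone-forming cells do, depend on this machinery.

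A control element shared by many of these genes is the ER stress response element (ERSE), CCAAT and CCACG separated by 9 bases, to which NF-Y and ATF6 bind. RefSeq promoters of 300 bases (250 before and 50 after the start, build GRCm38.p6) were found for 32 of the 37 genes. On either strand 9 of the 32 genes (28.1%) held an ERSE, against 0.137% of the 27025 genes with such a promoter. The elements of these 9 genes are shown because they share this pattern, which the other genes of the 32 lack in this window. Each is written along its own strand with CCAAT and CCACG in capitals.
Hspa5: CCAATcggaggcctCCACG
Calr: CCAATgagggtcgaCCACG
Derl3: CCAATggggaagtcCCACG
Hsp90b1, upstream copy: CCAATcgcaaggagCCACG
Hsp90b1, downstream copy: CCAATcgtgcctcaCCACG
Canx: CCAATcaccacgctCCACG
Pdia6: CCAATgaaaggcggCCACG
Dnajc3: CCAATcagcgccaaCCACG
Creld2: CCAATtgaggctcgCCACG
Syvn1: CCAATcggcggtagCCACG

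The elements share no fixed spacer. That of Hspa5 lay 65 to 47 bases before the start, and the copies of Hsp90b1 lay 212 to 194 and 107 to 89 bases before it, on opposite strands. A related element, ERSE-II (ATTGG, any base, CCACG, which need not overlap an ERSE), was found in Herpud1 and Dnajb11, which is 6.25% of the 32 genes against 0.0444% of all. The core CCACG alone, which both elements contain, stood in 84.4% of the 32 genes and 35.5% of all. The UPRE core TGACGTGG was found in Txndc5 only, 3.12% against 0.714%. Absence of a match says only that these letters are not in this window. The promoters of Hspa5 (chr2:34771840-34772139, plus strand), Hsp90b1 (chr10:86705395-86705694, minus strand) and Dnajc3 (chr14:118937682-118937981, plus strand) are printed because these chaperone genes carry the same element and had unlike differences between the groups. Capitals mark the ERSE.
Hspa5: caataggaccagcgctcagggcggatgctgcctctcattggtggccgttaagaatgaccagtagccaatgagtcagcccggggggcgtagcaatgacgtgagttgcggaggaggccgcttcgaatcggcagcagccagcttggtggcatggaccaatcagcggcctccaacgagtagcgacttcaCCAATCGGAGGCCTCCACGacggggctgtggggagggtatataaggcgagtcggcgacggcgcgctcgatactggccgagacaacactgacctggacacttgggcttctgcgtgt
Hsp90b1: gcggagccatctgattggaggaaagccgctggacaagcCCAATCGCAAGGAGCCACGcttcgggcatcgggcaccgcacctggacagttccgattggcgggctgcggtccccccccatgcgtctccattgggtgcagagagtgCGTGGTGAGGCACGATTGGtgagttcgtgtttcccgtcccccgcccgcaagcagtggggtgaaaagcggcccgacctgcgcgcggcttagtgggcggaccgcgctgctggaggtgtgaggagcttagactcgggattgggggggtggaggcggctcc
Dnajc3: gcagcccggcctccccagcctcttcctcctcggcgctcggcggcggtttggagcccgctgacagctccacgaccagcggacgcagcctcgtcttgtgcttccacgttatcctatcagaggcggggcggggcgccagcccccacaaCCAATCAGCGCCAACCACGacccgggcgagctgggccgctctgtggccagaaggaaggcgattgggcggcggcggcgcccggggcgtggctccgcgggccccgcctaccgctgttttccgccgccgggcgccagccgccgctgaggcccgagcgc

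Array medians over all probe sets lay between 3.85 and 3.89. Hybridization spike-ins, which are added in fixed amounts, averaged 9.32 on the GFP array and 10.13, 11.11 and 10.38 on replicates 1, 2 and 3, and 18S rRNA averaged 9.09, 7.65, 11.35 and 7.76 in that order. Of the mesenchymal and osteoblast markers listed, 6 of 8 were measured. Vim, S100a4, Col1a1, Col1a2 and Sparc lay between 10.99 and 13.24, while Alpl, a marker of mature osteoblasts, lay at 3.36 to 4.02, below the median gene. Plasma cells are the cell type richest in ER chaperones, and their markers Jchain (1.99 to 2.17), Prdm1 (2.56 to 2.73) and Mzb1 (3.64 to 3.87) all lay below the median gene, with Sdc1, which other cells also carry, at 7.22 to 7.58. The 5 leukocyte markers measured (2.10 to 4.52) and the 3 endothelial ones (2.44 to 4.29) were all below it. The summed level of the 7 epithelial markers was 8.53 (log2) in GFP and 6.70 to 7.0 in ezrinT567A-GFP. Krt5, Krt14, Krt17, Krt8, Cdh1 and Epcam were lower on all 3 arrays, and Krt18 stood at 2.25 to 2.33 throughout. The part of this difference, or of the spike-in difference, in the values below was not tested. In such bulk RNA, fewer cells of a type and less RNA per cell cannot be told apart.

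The comparison asked how this machinery stood in cells with ezrinT567A-GFP relative to cells with GFP alone, and all differences are the mean of the 3 ezrinT567A-GFP arrays minus GFP on the log2 scale. Most chaperones and oxidoreductases were lower, by small amounts. In all, 24 members, counting Erp44 at -8.7e-05, were lower (64.9%, against 43.8% of all genes) and 13 higher (35.1%, against 56.1%). Their median was -0.04, where all genes had 0.03. It was -0.11 without replicate 1, -0.07 with the mean of probe sets and -0.08 over members with plain _at probe sets. With the mean spike-in level as covariate it turned to 0.02. The spike-in level of GFP (9.32) lay below those of the replicates (10.13 to 11.11). Values with this covariate therefore compare GFP with a line through the 3 replicates, extended below their spike-in levels, and are not corrected differences. Without it, member differences ran from -1.01 for Dnajc3 to 0.50 for Ern1. All 3 ezrinT567A-GFP arrays lay below GFP for 16 members (43.2%, against 25.6% of all genes) and above GFP for 10 (27.0%, against 32.5%), and the groups overlapped for the remaining 11.

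None of these differences passed limma's two-sided test over all genes. The count was 0 of 37 members, and 0% of the 18193 genes passed. The smallest adjusted p was 0.232, for Pdia3. At an unadjusted p under 0.05 there were 7 members on the lower side (18.9%, against 6.5% of all genes) and 0 on the higher side (against 7.46%). The 7 were Dnajc3, Sdf2l1, Pdia4, Manf, Pdia3, Edem3 and Hsp90b1. All 37 members lay above the median gene, where such p-values were more common. In either direction 2540 of all 18193 genes had one. With dim genes left out and the fit repeated, 1851 of 9096 genes did, beside 7 members. The share of members in either direction was thus near that of genes above the median level. Without replicate 2, 2 of 37 members and 2241 of 18193 genes had an unadjusted p under 0.05, a smaller share for members. Without replicate 3 there were 3 members and 1499 genes, a like share. Without replicate 1 there were 8 members and 2389 genes, a larger share for members. With 1 array against 3, an exact permutation cannot go below p = 0.25.

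**Figure D1:**
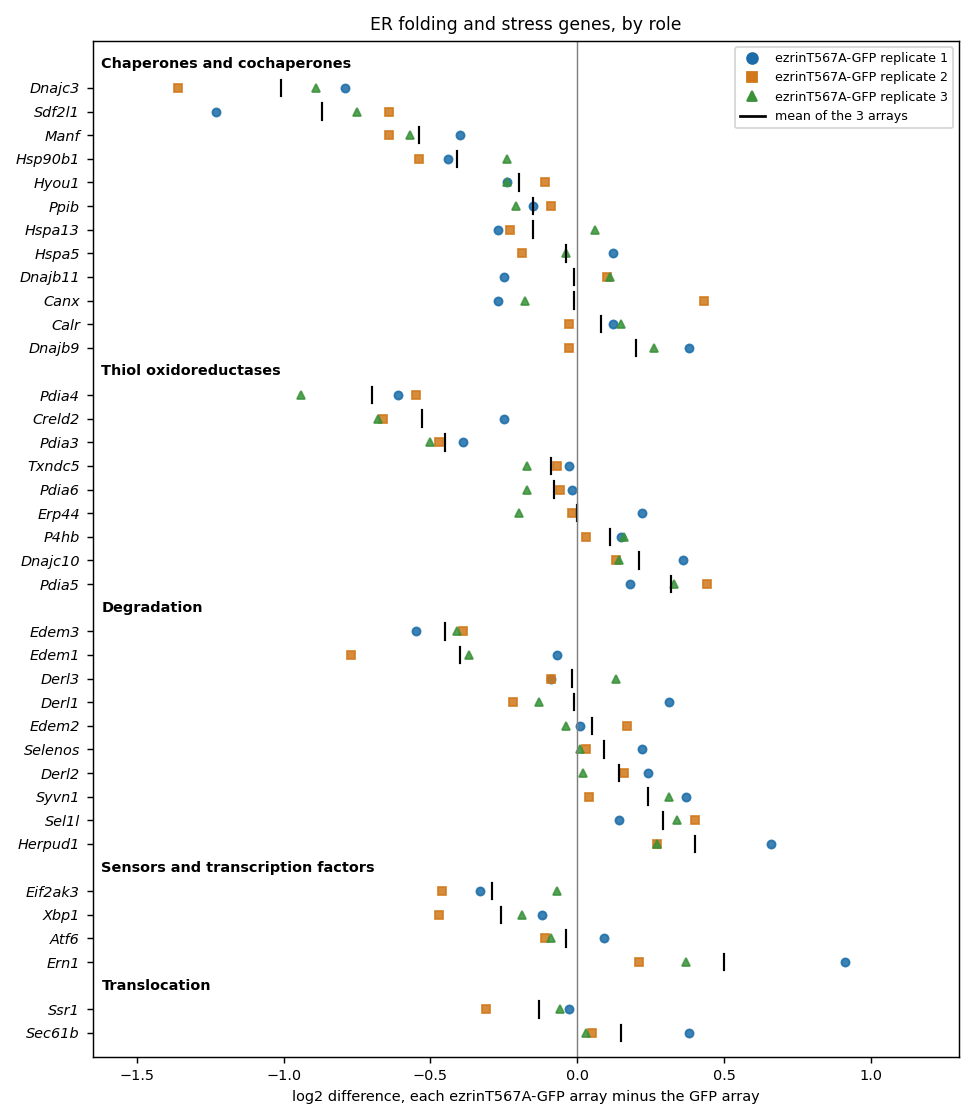
Difference of each ezrinT567A-GFP array from the GFP array (log2, horizontal axis) for the 37 genes, grouped by role and ordered by the mean of the 3 arrays (black bar). The 7 genes with an unadjusted p under 0.05 lie left of 0 on every array, and replicate 1 (circles) stands apart to the right for Ern1 and Herpud1.

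Of the 12 chaperones and cochaperones, 10 were lower. Their median was -0.15, and it was -0.26, -0.15 and -0.20 on replicates 1, 2 and 3. With the spike-in covariate it was -0.27. With plain _at probe sets it was -0.51, but that median is over fewer genes. Hspa5, Calr and Hsp90b1 have no such probe set, and Canx (-0.68) and Hyou1 (-0.51) are read there from dimmer ones. In this role 6 genes lay below GFP on all 3 arrays (25.6% of all genes did) and 0 above (32.5% of all genes). Dnajc3 encodes p58IPK, a J-domain cochaperone of BiP that also restrains PERK. Its level was 8.59 in GFP and 7.80, 7.23 and 7.69 in replicates 1, 2 and 3. Every ezrinT567A-GFP array lay below GFP, by 0.79 at the least, and the difference was -1.01 (SE 0.26, unadjusted p = 0.0162, adjusted p = 0.28 with limma), a 2.02-fold lower level. The further 4 probe sets of Dnajc3 were also lower on all 3 arrays, so that its 5 probe sets ranged from -1.11 to -0.49. With the spike-in covariate the difference was -0.30.

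Sdf2l1 forms a complex with J-domain proteins that prevents aggregation in the ER. It was 8.06 in GFP and 6.83, 7.42 and 7.31 in the 3 replicates, with replicate 1 the lowest. The difference was -0.87 (SE 0.27, unadjusted p = 0.0292, adjusted p = 0.305), and -1.48 with the spike-in covariate. Manf, a secreted factor that binds BiP, was 10.63 in GFP and 10.23, 9.99 and 10.06 in the replicates, which lie close together and apart from GFP. Its difference was -0.54 (SE 0.13, unadjusted p = 0.012, adjusted p = 0.266), and -0.28 with the spike-in covariate.

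Among the abundant chaperones the values went apart. Hsp90b1, which folds integrins and growth factors, was 11.77 in GFP and 11.34, 11.23 and 11.54 in the replicates, a difference of -0.41 (SE 0.14, unadjusted p = 0.0418, adjusted p = 0.339), and -0.20 with the spike-in covariate. A further probe set of Hsp90b1 gave -0.54. Hspa5, the classical readout of ER stress, was 11.98 in GFP and 12.09, 11.79 and 11.94 in the replicates. The GFP value lay inside the range of the replicates, and the difference of -0.04 (SE 0.14, adjusted p = 0.933) was smaller than the SD of 0.15 (n = 3). Other probe sets of Hspa5 gave -0.28 and 0.12, and with the spike-in covariate the difference was 0.31. The lectin calreticulin, Calr, gave 0.08 (SE 0.10), and its 3 probe sets ranged from -0.06 to 0.08.

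Canx, encoding calnexin, depended on the probe set. The brightest gave 10.77 in GFP and 10.50, 11.20 and 10.59 in the replicates, so that replicate 2 alone lay above GFP, with an SD of 0.38, the widest among the 37 genes. A dimmer Canx probe set gave 9.32 in GFP and 8.67, 8.58 and 8.67 in the replicates, all below GFP, a difference of -0.68 (SE 0.10, unadjusted p = 0.00297). For the brightest, the difference of -0.01 became -0.91 with the spike-in covariate, -0.23 without replicate 2, 0.12 without replicate 1 and 0.08 without replicate 3. Hyou1, the nucleotide exchange factor of BiP, was below GFP on all 3 arrays (-0.20, SE 0.12). Its dimmer probe sets gave -0.51 and -0.49, also below GFP on all 3 arrays, and the spike-in covariate gave -0.37. The dimmest (-0.49) was 5.29 in GFP and 5.28, 5.18 and 3.95 in the replicates, so that replicate 3 set most of its difference. The prolyl isomerase gene Ppib was likewise below GFP (-0.15, SE 0.09). Hspa13 (-0.15), Dnajb11 (-0.01) and the IRE1 target Dnajb9 (0.20) overlapped with GFP.

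**Figure D2:**
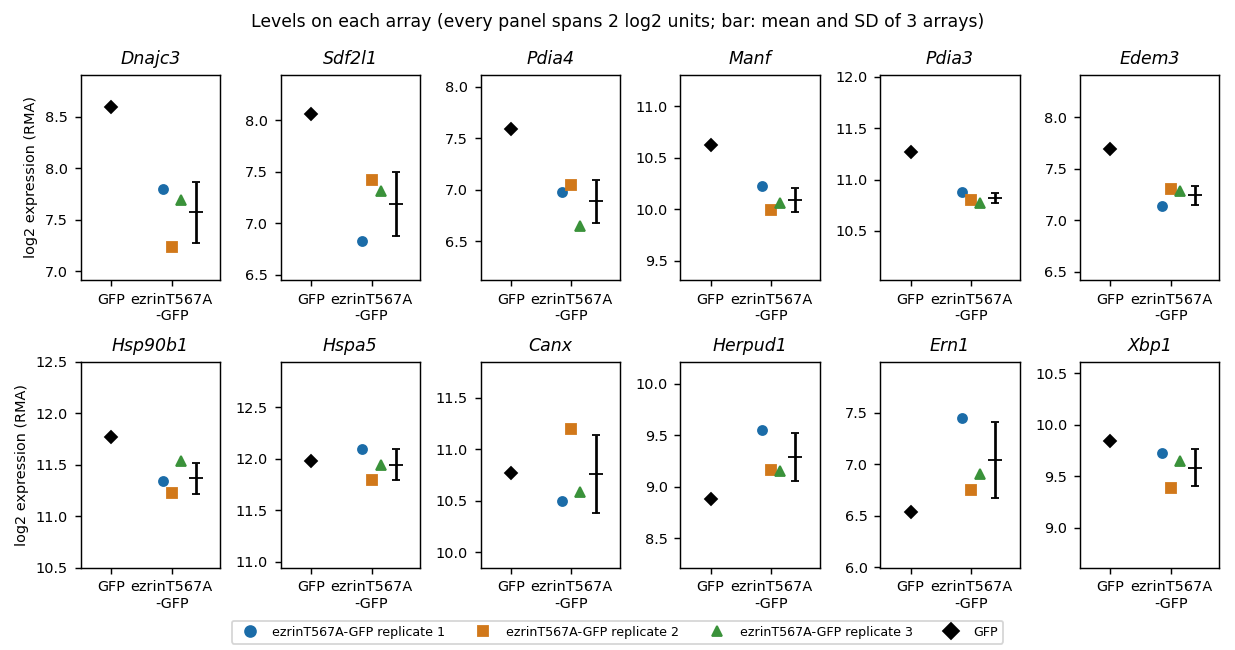
log2 expression on each of the 4 arrays for 12 genes, every panel spanning 2 log2 units, with the mean and SD of the 3 ezrinT567A-GFP arrays at the right. The first 7 panels show genes whose 3 arrays all lie below GFP, as do those of Xbp1, while Hspa5 and Canx overlap with GFP and Herpud1 and Ern1 lie above it.

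Of the 9 thiol oxidoreductases, 6 were lower, counting Erp44 at -8.7e-05. The median of this role was -0.08, and -0.02, -0.06 and -0.17 on the separate arrays. It was -0.17 with the mean of probe sets, -0.12 without replicate 1 and -0.04 without replicate 3. Here 5 genes lay below GFP on all 3 arrays, against 25.6% of all genes, and 3 above, which is near the 32.5% of all genes. Pdia3, the isomerase that works with calnexin and calreticulin on glycoproteins, was 11.27 in GFP and 10.88, 10.80 and 10.77 in the replicates. The replicates were within an SD of 0.05 (n = 3) of each other, the narrowest spread among the 37 genes, and the difference was -0.45 (SE 0.09, unadjusted p = 0.00555, adjusted p = 0.232). Pdia4, which acts with BiP, was 7.59 in GFP and 6.98, 7.05 and 6.65 in the replicates, a difference of -0.70 (SE 0.20, unadjusted p = 0.0238, adjusted p = 0.293).

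Creld2, a stress-induced oxidoreductase, was 9.56 in GFP and 9.31, 8.91 and 8.88 in the replicates, and its difference of -0.53 (SE 0.21) had an unadjusted p of 0.0643. With the spike-in covariate it was -0.15. The main isomerase P4hb, which also serves as a subunit of collagen prolyl hydroxylase, lay above GFP on all 3 arrays by only 0.11 (SE 0.09). Dnajc10, a reductase that prepares proteins for degradation, was above GFP on all 3 arrays with each of its 3 probe sets (0.21 to 0.26), and Pdia5 likewise with its single probe set (0.32, SE 0.15). With the spike-in covariate Dnajc10 was 0.44 and Pdia5 0.02. Pdia6 (-0.08) and Txndc5 (-0.09) were below GFP on all 3 arrays by less than 0.20, and Erp44 was 8.62 in both groups. A further Txndc5 probe set lay above GFP on all 3 arrays (0.02), and a dimmer Erp44 probe set lay below it on all 3 (-0.42).

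Of the 10 degradation genes, 6 were higher, which is near the 56.1% of all genes that were. Their median was 0.07 (0.18, 0.04 and 0.02 on replicates 1, 2 and 3), and 0.22 with the spike-in covariate. All 3 arrays were above GFP for 5 genes (against 32.5% of all genes) and below for 2, near the 25.6% of all genes. Herpud1, which organises the complex and is induced by stress, was 8.88 in GFP and 9.55, 9.16 and 9.15 in the replicates. All lay above GFP, replicate 1 furthest, and the difference was 0.40 (SE 0.20, unadjusted p = 0.115, adjusted p = 0.466). Both Herpud1 probe sets were above GFP on all 3 arrays, and the difference was 0.27 without replicate 1 and 0.77 with the spike-in covariate. The adaptor gene Sel1l was 7.57 in GFP and 7.70, 7.97 and 7.91 in the replicates (0.29, SE 0.15), and 4 of its 5 probe sets lay above GFP on all 3 arrays. With the spike-in covariate its difference was 0.01. The ligase gene Syvn1 (HRD1) was higher by 0.24 (SE 0.18), Derl2 by 0.14 (SE 0.13) and Selenos by 0.09 (SE 0.13), each above GFP on all 3 arrays and none past the test. Dimmer probe sets of Syvn1 (0.04), Derl2 (-0.05) and Selenos (-0.11 and -0.09) overlapped with GFP.

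Among the mannosidase-like genes that mark glycoproteins for removal, Edem3 and Edem1 lay below GFP on all 3 arrays. Edem3 was 7.69 in GFP and 7.14, 7.30 and 7.28 in the replicates, a difference of -0.45 (SE 0.13, unadjusted p = 0.0242, adjusted p = 0.295) with no overlap. Edem3 lies on chromosome 1, where the 510 genes above the median level had a median of -0.34 and medians of -0.31, -0.37 and -0.29 on replicates 1, 2 and 3. Herpud1 lies on chromosome 8, where the median of 516 such genes was 0.24. Atf6, also on chromosome 1, was -0.04, and Calr, on chromosome 8, was 0.08. Some chromosome medians also differed between replicates 1, 2 and 3. On chromosome 16 (Hspa13, Dnajb11, Sdf2l1 and Pdia5) they were -0.10, 0.26 and 0.33. On chromosome 4 (Erp44 and Sec61b) they were 0.22, -0.01 and 0.01, and on chromosome 15 (Creld2 and Derl1) 0.17, -0.04 and 0.01. The part of the chromosome medians in the differences of these members was not tested. Edem1 was -0.40 (SE 0.30) with replicate 1 almost at GFP (7.30 against 7.36). It turned to 0.42 with the spike-in covariate and was -0.22 without replicate 2. Edem2 was 0.05 (SE 0.14), and -0.18 with the covariate. Derl1 (-0.01) and Derl3 (-0.02), of the derlin family, overlapped with GFP, and were 0.53 and 0.06 with the covariate.

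Of the sensors and transcription factors, 1 was higher and 3 lower, none with an unadjusted p under 0.05. Ern1 was 6.54 in GFP and 7.45, 6.75 and 6.91 in the replicates, so that replicate 1 stood 0.91 above GFP and replicate 2 only 0.21. Its difference of 0.50 (SE 0.31, adjusted p = 0.553) was 0.29 without replicate 1 and 1.23 with the spike-in covariate. The other 4 Ern1 probe sets, at mean levels of 2.45 to 4.68, gave -0.03 to 0.13. Xbp1 was 9.84 in GFP and 9.72, 9.38 and 9.65 in the replicates (-0.26, SE 0.17, adjusted p = 0.567), and these probe sets do not tell its spliced form from the unspliced. Eif2ak3 was 6.86 in GFP and 6.53, 6.40 and 6.79 in the replicates (-0.29, SE 0.19, adjusted p = 0.58). Atf6 was 6.47 in GFP and 6.56, 6.36 and 6.39 in the replicates, and overlapped with GFP (-0.04, SE 0.14, adjusted p = 0.94). With the spike-in covariate Xbp1 and Atf6 turned to 0.17 and 0.16, Eif2ak3 was -0.03, and the median of the role turned from -0.15 to 0.17. Without replicate 2 Xbp1 was -0.16. With plain _at probe sets Xbp1 was 0.03.

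The 2 translocation genes went apart. Sec61b, a subunit of the channel, was 10.54 in GFP and 10.92, 10.58 and 10.57 in the replicates (0.15, SE 0.18), with replicate 1 alone clearly higher. Ssr1, of the signal sequence receptor, was 10.29 in GFP and 10.26, 9.97 and 10.23 (-0.13, SE 0.15, adjusted p = 0.764). All 4 probe sets of Ssr1 were below GFP on all 3 arrays, and the dimmest gave -0.81 (SE 0.17).

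The 37 genes had 90 probe sets in all, and 28 genes had more than 1. Within 17 of these 28 the probe sets agreed in sign, and within 11 they did not. The 11 were Hspa5, Canx, Calr, Xbp1, Atf6, Eif2ak3, Ern1, Derl1, Derl2, Selenos and Txndc5. Of the 7 genes with an unadjusted p under 0.05, the 5 with several probe sets (Dnajc3, Pdia3, Pdia4, Edem3 and Hsp90b1) had every probe set below GFP on all 3 arrays, although the dimmer ones of Pdia3, Pdia4 and Edem3 had smaller differences of -0.26, -0.16 and -0.19 at mean levels below the array medians. Manf and Sdf2l1 had 1 probe set each.

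**Figure D3:**
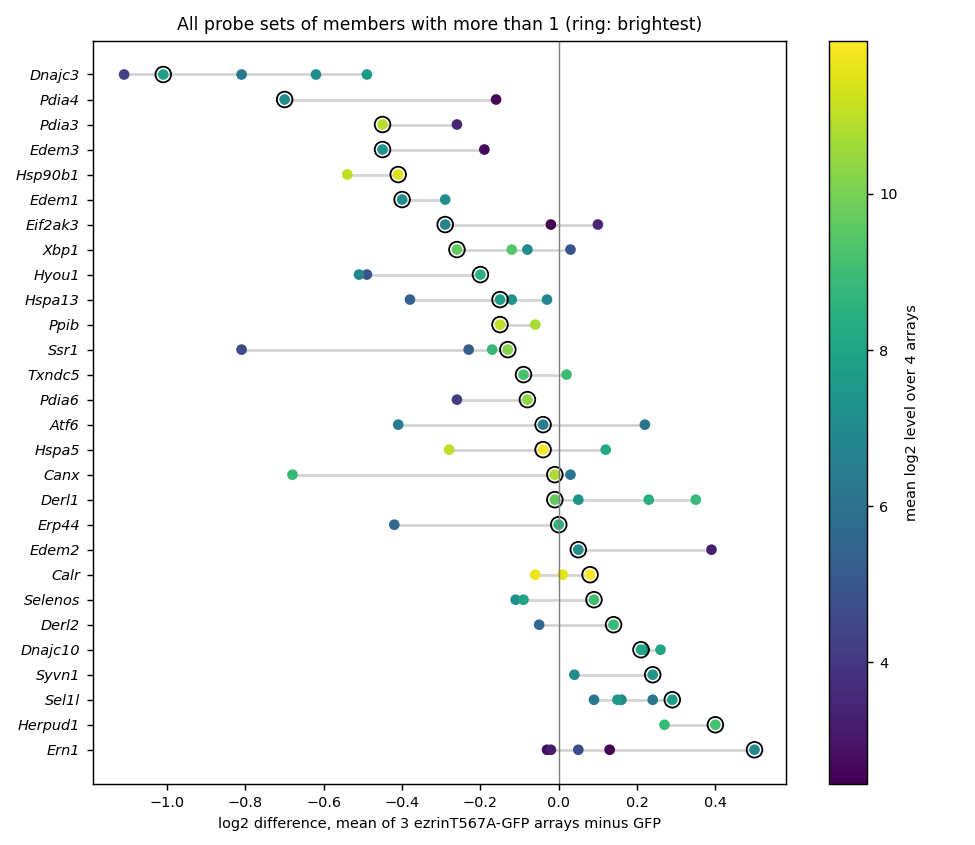
Difference between groups (log2, horizontal axis) for every probe set of the 28 genes with more than 1, coloured by mean level, with a ring around the brightest probe set. The 5 probe sets of Dnajc3 lie between -1.11 and -0.49, while those of Canx run from -0.68 to 0.03.

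The differences were also read beside the promoter elements. The 9 genes with an ERSE had a median of -0.04, with 7 lower and 2 higher, and ran from -1.01 (Dnajc3) to 0.24 (Syvn1). The 23 genes without an ERSE in the window had a median of -0.0, with 12 lower and 11 higher, and ran from -0.87 (Sdf2l1) to 0.50 (Ern1). Hspa5, with the element printed above, thus differed by -0.04, while Hsp90b1 and Dnajc3, with the same element, differed by -0.41 and -1.01. Of the 7 genes at an unadjusted p under 0.05, Hsp90b1 and Dnajc3 held an ERSE, Sdf2l1, Pdia3, Pdia4 and Edem3 did not in this window, and Manf was not matched. Outside the 37 genes, 11 measured genes with an ERSE had a median of 0.12. All 14432 measured genes without one, the 23 members among them, had 0.03. Those 11 were dim, at mean levels of 2.23 to 5.88, where the 9 members with an ERSE had 5.17 to 11.96.

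Other genes of the same pathways were taken from 9 lists holding 117 genes, of which 112 were measured. Of these 74 were higher and 38 lower, where 56.1% of all genes were higher, around a median of 0.07. With limma 0 passed over all genes, while at an unadjusted p under 0.05 there were 10 higher (against 7.46% of all genes) and 6 lower (against 6.5%). Stress outputs and sensor-processing genes were higher in 12 of 14 cases, against 56.1% of all genes. At an unadjusted p under 0.05 there was 1 higher and 1 lower, near the 7.46% and 6.5% of all genes. Their median of 0.33 was 0.54, 0.27 and 0.20 on replicates 1, 2 and 3. Atf4, the transcription factor translated when PERK or a related kinase is active, was 10.75 in GFP and 11.30, 11.10 and 10.91 in the replicates (0.35, SE 0.17). Its target Chac1, a glutathione-degrading enzyme, was 8.43 in GFP and 9.49, 9.63 and 8.80 in the replicates (0.88, SE 0.36). Ddit3 (CHOP) was 7.58 in GFP and 8.23, 8.21 and 7.41, overlapping with GFP. Atf4, Chac1 and Ddit3 were picked with their values in view. By the smallest p in that list stood Wfs1, an ER membrane protein, higher by 0.57 (SE 0.12, unadjusted p = 0.00736, adjusted p = 0.24), and Ppp1r15b, a phosphatase subunit that restores translation, lower by -0.48 (SE 0.17, adjusted p = 0.341).

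Genes of retrieval and export had a median of 0.16, with 8 of 12 above GFP on all 3 arrays, against 32.5% of all genes. At an unadjusted p under 0.05, 5 of the 12 were higher, against 7.46% of all genes, and 0 lower. Kdelr3, a receptor that returns escaped chaperones to the ER, was 6.74 in GFP and 7.53, 7.34 and 7.34 in the replicates (0.66, SE 0.14, adjusted p = 0.241). Sec23b, of the COPII coat that carries cargo out of the ER, was 8.49 in GFP and 8.97, 8.94 and 8.91 (0.45, SE 0.10, adjusted p = 0.247). In each of these genes the 3 replicates lay far closer to each other than to GFP, but neither passed the test over all genes.

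The remaining lists had medians between -0.05 and 0.10. Among oxidative folding genes the peroxiredoxin gene Prdx4 was higher by 0.94 (SE 0.22, adjusted p = 0.255) and Ero1b was -0.33. Among cochaperones Sdf2, the constitutive relative of Sdf2l1, was higher by 0.49 (SE 0.14, adjusted p = 0.286) where Sdf2l1 itself was lower, and Dnajc1 was 0.25. The lowest values in the oligosaccharyltransferase list by p were Magt1 (-0.62, SE 0.13, adjusted p = 0.24) and Stt3b (-0.36), which belong to the same complex. Ssr4 (-0.38) and Tram1 (-0.42) led the translocon list, and Nploc4 (0.31) and Rnf5 (-0.35) that of degradation. Mogs (-0.30) and Erlec1 (0.56) led glycan quality control, and P4ha1 (-0.35) and P3h1 (0.49) the prolyl isomerases and collagen chaperones. None of them passed.

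**Figure D4:**
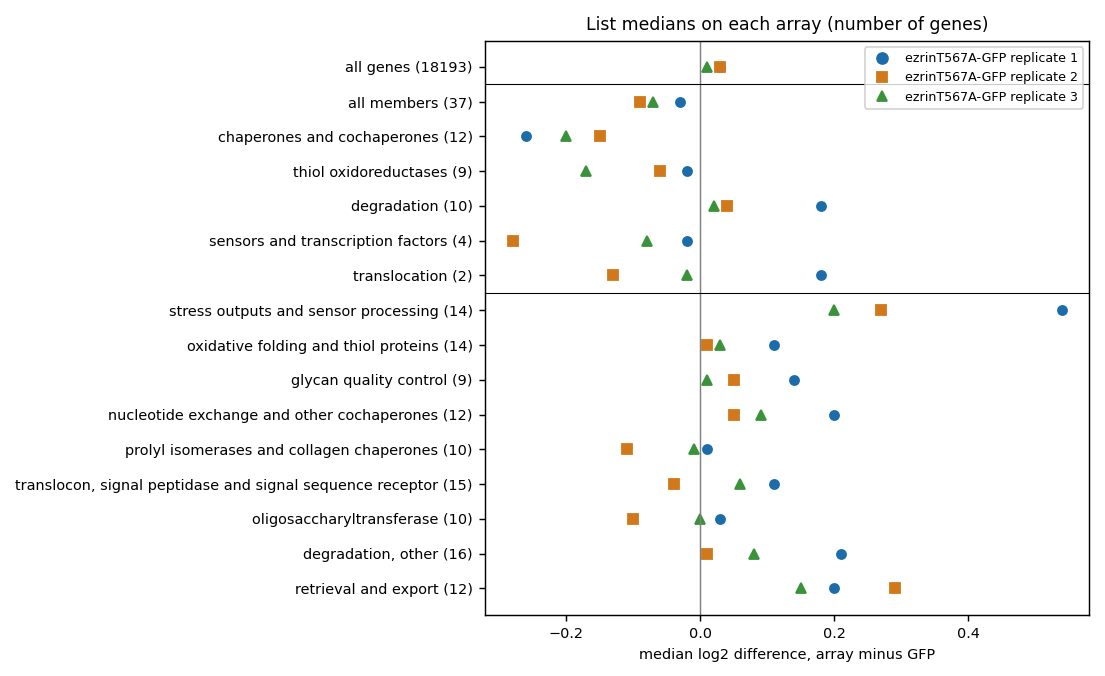
Median difference from GFP (log2) on each ezrinT567A-GFP array, for all genes, for the 37 genes and their roles, and for 9 further lists of the same pathways, with the number of genes in brackets. Chaperone medians lie between -0.26 and -0.15, and those of retrieval and export between 0.15 and 0.29, while replicate 1 is highest, at 0.54, for the stress outputs.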

How the data were processed

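The authors deposited log2 expression values per probe set, summarised with RMA per the submitters' processing notes, for 4 single-colour Affymetrix arrays of biotinylated cRNA. Which program ran RMA, and its version, is not given in the sources used. Values ran from 1.18 to 13.69, and because RMA equalises the arrays, a global shift in RNA content would be removed.

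Gene names came from the platform annotation: of 45101 probe sets, 34945 had 1 gene, 932 several and 9160 were not listed, and 64 were controls. The 34741 gene IDs found in RefSeq (GRCm38.p6) changed 0 symbols. Each gene was represented by its brightest probe set by mean log2, with no filter on dim genes.

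ezrinT567A-GFP (3 arrays) was compared with GFP (1 array, assumed to vary like the others) by limma 3.58.1 in R 4.3.3 (lmFit, eBayes with trend, 2 residual degrees of freedom, prior worth 2.23), with Benjamini-Hochberg adjustment over 18193 genes at 0.05. All tests were two-sided. The scripts were tested on simulated data. There, 15.4% of genes changed 2-fold and 69.7% of those changed 4-fold passed the threshold. A gene that did not pass may therefore still differ. Figures used matplotlib 3.10.9.

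The genes and lists were chosen with earlier results of these data known. Values on every array are given for genes with an unadjusted p under 0.05 or a difference of at least 1, the sensors, Hspa5, Hsp90b1 and the smallest p per role, and for some others chosen after their values were seen. The 2 smallest p per pathway list are named. Protein features were not analysed here. Alternatives were renormalization, centring, other probe set rules, leaving out dim genes, other priors, a spike-in covariate and leaving out each replicate.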

Additional observations from a re-analysis of the deposited data

Results flagged for a closer look

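Hybridization spike-ins, which belong to no gene, were on average 1.22 (log2) higher on the 3 ezrinT567A-GFP arrays than on the GFP array, with replicate 2 the highest at 11.11. A Canx probe set that did not stand for its gene, because a brighter one exists, was lower by -0.68 on average and below GFP on all 3 arrays. A dim Ssr1 probe set of the same kind, at a mean level of 4.60, was lower by -0.81.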

How the results depend on the processing

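No paired analysis was possible because the GFP group has 1 array, whose label carries no replicate number. The count of 0 genes past the threshold became 34 after quantile normalization, 30 after median centring, 6 with the mean of probe sets, 3 without dim genes and 9 with a robust prior, and the count of members stayed 0 under all 11 alternatives (lowest adjusted p 0.119). Leaving out each replicate gave 2 to 8 members at an unadjusted p under 0.05, member medians of -0.11 to -0.04 and chaperone medians of -0.21 to -0.13.

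The 7 members at an unadjusted p under 0.05 stayed lower under every alternative that gave a value (10 for Hsp90b1, which has no plain _at probe set, and 11 for the others), with adjusted p from 0.119 to 0.781. The mean of probe sets gave a member median of -0.07 and an oxidoreductase median of -0.17. With plain _at probe sets, over the members that have one, medians were -0.08 for members, -0.51 for chaperones and -0.0022 for sensors. The spike-in covariate, which leaves 1 residual degree of freedom, gave medians of 0.02 for members, -0.27 for chaperones, 0.22 for degradation, 0.17 for sensors and 0.35 for translocation. As above, these compare GFP with a line extended below the spike-in levels of the replicates.

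Direction turned in 27 of 401 member values, in 12 members. Some of the 12 had main differences so small that a slight move turns the sign. These were -8.7e-05 for Erp44, -0.01 for Canx, Dnajb11 and Derl1, and -0.02 for Derl3. Edem1 (-0.40) and Xbp1 (-0.26) had larger ones. With the spike-in covariate Hspa5 was 0.31, Erp44 0.17, Edem1 0.42, Edem2 -0.18, Derl1 0.53, Derl3 0.06, Xbp1 0.17, Atf6 0.16 and Ssr1 0.24. Renormalization gave Canx 0.04 and Erp44 0.02, the mean of probe sets Derl1 0.15 and Selenos -0.04, and plain _at probe sets Derl1 0.35 and Xbp1 0.03. Leaving out each replicate in turn moved Hspa5 from -0.11 to 0.04, Canx from -0.23 to 0.12, Dnajb11 from -0.08 to 0.10, Erp44 from -0.11 to 0.10, Edem2 from -0.02 to 0.09, Derl1 from -0.17 to 0.09, Derl3 from -0.09 to 0.02 and Atf6 from -0.10 to 0.0018. The cause was not tested. The number of arrays, with 1 in GFP, limits the precision of every value.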
